A study of Mus musculus with 6 samples.

Results

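The 10 genes described here encode fibroblast growth factor (FGF) receptors (Fgfr1, Fgfr2 and Fgfr3), Sprouty inhibitors (Spry1, Spry2 and Spry4), dual-specificity phosphatases that act on MAP kinases (Dusp4 and Dusp6) and the ETS transcription factors Etv4 and Etv5. They were chosen by symbol, with earlier results of these data known. Each of the 10 matched 1 row of a table of 30323 gene IDs. The RNA was that of entire hearts of mice at embryonic day 9.5. There were 3 libraries of genotype CDC-42 KO, with a knockout of the small GTPase gene Cdc42 in the myocardium (MCKO), and 3 of genotype C57BL/6 ctrl. Each set is described as 3 hearts, and the labels tie no library to a litter or say that hearts were kept apart, so p-values measure only the spread between these libraries, which may be technical. The labels name neither the driver that deletes Cdc42 in the muscle nor any allele that controls carry.

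FGF receptors are tyrosine kinases that, once bound by an FGF, recruit adaptors and switch on RAS, RAF, MEK and the MAP kinase ERK. Active ERK raises transcription of Etv4 and Etv5 and of genes that dampen the same route, among them Sprouty and Dusp genes, so these transcripts are widely used as readouts of receptor tyrosine kinase signalling. In the early heart FGF signals maintain and expand second heart field progenitors and drive growth of the muscle wall, and other growth factors that act through ERK share the same feedback genes.

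The MCKO libraries held 23883877 to 34246477 estimated counts and the control libraries 19256840 to 32169289. Levels are in CPM, counts per 1000000 counts of the library. Cdc42 had 248, 241 and 238 CPM in MCKO hearts, against 399, 377 and 424 CPM in controls (log2 fold change -0.66, SE 0.047, edgeR adjusted p = 2.93e-06). RNA of cells outside the muscle is part of both levels. The defining heart muscle markers were abundant in each library: the summed level of Myh6, Tnnt2, Actc1, Nkx2-5, Myl7 and Myl4 was 26625 to 27790 CPM in MCKO hearts and 23859 to 26310 CPM in controls. In the comparison as a whole 58.4% of 14697 tested genes were called at an adjusted p under 0.05, 29.3% higher and 29.1% lower in MCKO, so a call by itself sets no gene apart here.

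All 10 genes passed the filter on low counts. Of these, 8 were called higher in MCKO and none was called lower, where 29.3% of all tested genes were called higher. Fgfr2 and Fgfr3 were not called. The 7 Sprouty, Dusp and Etv genes were all called higher, with log2 fold changes of 0.77 to 1.51 and a median of 0.86, where the median of all tested genes was 0.00. Spry4, Dusp4 and Dusp6 were at least 2-fold higher, as were 7.03% of tested genes, and none was at least 2-fold lower, as 3.99% of tested genes were. The 8 calls also passed an adjusted p under 0.01, which 45.3% of tested genes did in either direction. The MCKO libraries lay above every control library for the 8 called genes, a separation that 28.3% of tested genes showed. In whole hearts, more cells of a type and more RNA per cell cannot be told apart.

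**Figure D1:**
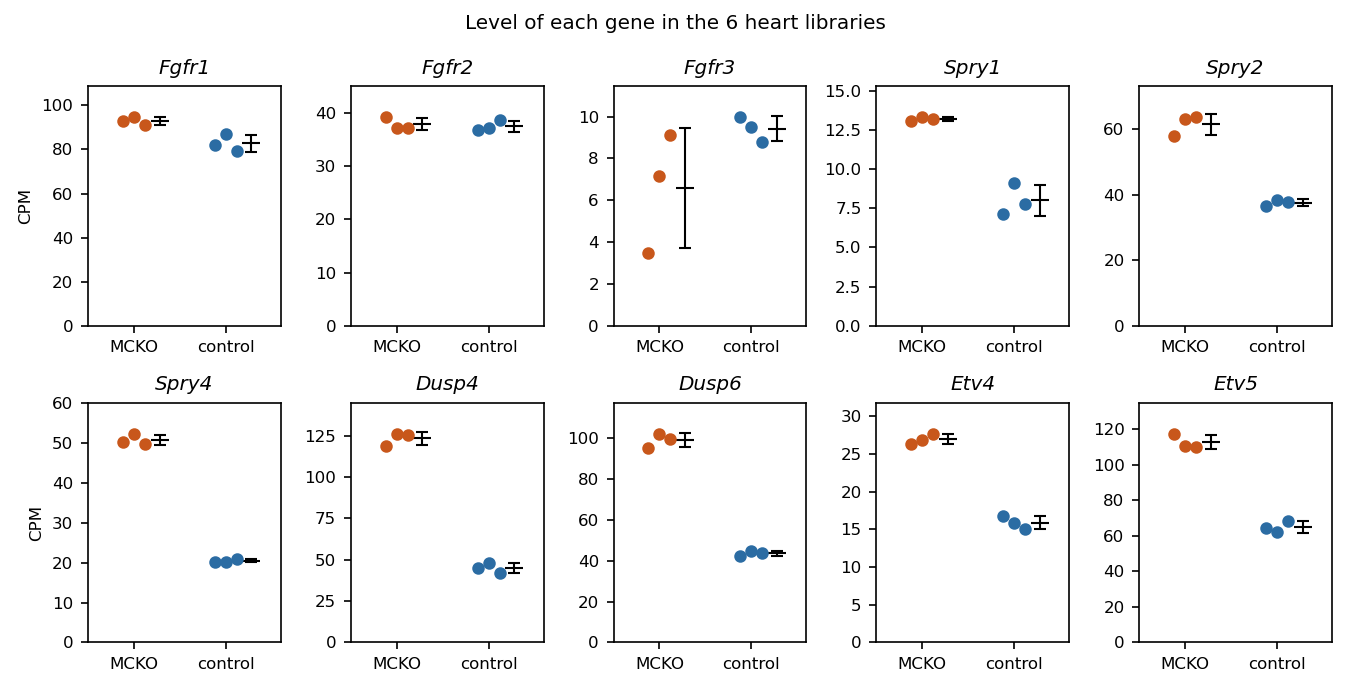
Level in CPM (vertical axes, from 0) of each of the 10 genes in 3 MCKO libraries (orange) and 3 control libraries (blue); bars are the mean and SD. The MCKO points lie above the control points for every gene except Fgfr2, whose points overlap, and Fgfr3, whose MCKO points spread from 3.50 to 9.13 CPM.

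Of the receptors, Fgfr1, the main FGF receptor of cardiac mesoderm, had 93.1, 94.6 and 91.2 CPM in MCKO hearts, against 82.0, 86.9 and 79.3 CPM in controls. The groups did not overlap, but the difference was small: a log2 fold change of 0.23 (SE 0.048, edgeR adjusted p = 0.00265), or 1.17-fold. Fgfr1 (ENSMUSG00000031565) lies on the plus strand of chromosome 8 at 25513654 to 25575718; all gene coordinates are those of GENCODE M21 on GRCm38. Fgfr2, which is best known for its epithelial and mesenchymal splice forms, had 39.2, 37.2 and 37.2 CPM in MCKO hearts and 36.8, 37.1 and 38.7 CPM in controls. These ranges overlapped, and the log2 fold change of 0.07 (SE 0.050, edgeR adjusted p = 0.232) did not pass. The counts are per gene, so the splice forms are not told apart. Fgfr2 (ENSMUSG00000030849) is annotated on chromosome 7, minus strand, from 130162451 to 133123350, a span that takes in many neighbouring genes and shares exon sequence with Ctbp2.

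Fgfr3, a receptor known chiefly from cartilage and neural tissue, was the least abundant of the 3 and varied most between MCKO libraries. It had 3.50, 7.16 and 9.13 CPM in MCKO replicates 1, 2 and 3, against 9.97, 9.5 and 8.80 CPM in control replicates 1, 2 and 3. Two-sided 95% Poisson intervals, which cover counting error only, ran from 2.91 to 4.19 CPM in MCKO replicate 1 and from 7.96 to 10.4 CPM in MCKO replicate 3, so these libraries differed by more than counting error. The coefficient of variation was 43.3% over the MCKO libraries and 6.26% over the controls. Among the other 9 genes it was at most 5.10% in MCKO and 12.3% in controls. The log2 fold change of -0.47 (SE 0.33, edgeR adjusted p = 0.263) did not pass. Without MCKO replicate 1 it was -0.15 (adjusted p = 0.398), and without MCKO replicate 3 it was -0.78 (adjusted p = 0.0593). Fgfr3 (ENSMUSG00000054252) lies on the plus strand of chromosome 5 at 33721674 to 33737068.

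The make-up of the receptor pool was read from CPM per kilobase of merged exon length, summed over Fgfr1 to Fgfr4. Fgfr1 supplied 68.2, 66.8 and 64.8% of this sum in MCKO hearts, against 61.8, 63.5 and 61.4% in controls. The groups did not overlap (exact 2-sided permutation test over libraries, p = 0.1, the smallest that 3 against 3 allows). Fgfr2 supplied 25.9 ± 1.3% in MCKO and 27.0 ± 1.4% in controls (SD, n = 3 each, exact permutation p = 0.5). Fgfr3 supplied 3.54, 6.97 and 8.94% in MCKO and 10.4, 9.57 and 9.39% in controls (exact permutation p = 0.1), with MCKO replicate 1 the lowest. Fgfr4 was near the bottom of detection, at 0.52 ± 0.075 CPM in MCKO and 0.48 ± 0.18 CPM in controls (SD, n = 3 each), with 43 and 36 counts over the groups. Fgfrl1, a receptor-like gene without a kinase domain, had 37.2, 37.3 and 41.7 CPM in MCKO hearts and 47.0, 56.1 and 44.0 CPM in controls. It was called lower (log2 fold change -0.28, SE 0.095, edgeR adjusted p = 0.0347), a call lost without MCKO replicate 1 or 2 and without control replicate 1 or 2 (adjusted p = 0.0526 to 0.114) and with the replicate number as a block (adjusted p = 0.0609).

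Sprouty proteins are induced by growth factor signals and block the route from receptors to RAS and RAF. Spry4, found in endothelium and in tissues that receive FGF, had 50.2, 52.3 and 49.8 CPM in MCKO hearts, against 20.2, 20.3 and 20.8 CPM in controls. That made it 2.59-fold higher in MCKO, a log2 fold change of 1.37 (SE 0.050, edgeR adjusted p = 4.74e-08). Spry2, the most abundant Sprouty gene here per kilobase, had 57.9, 63.0 and 63.6 CPM in MCKO hearts and 36.5, 38.4 and 37.9 CPM in controls. It was 1.71-fold higher (log2 fold change 0.77, SE 0.055, edgeR adjusted p = 3.19e-06). Spry1, a regulator of kidney budding that acts on RET and FGF receptors, was the scarcest of the 3. It had 13.1, 13.3 and 13.2 CPM in MCKO hearts, against 7.15, 9.09 and 7.80 CPM in controls (log2 fold change 0.79, SE 0.10, edgeR adjusted p = 0.000126). Spry1 lies on the plus strand of chromosome 3 at 37639947 to 37644598, Spry2 on chromosome 14, minus strand, from 105891947 to 105896819, and Spry4 on chromosome 18, minus strand, from 38586247 to 38601415.

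Dual-specificity phosphatases remove phosphates from both tyrosine and threonine of MAP kinases. Dusp6, a cytoplasmic phosphatase selective for ERK, had 95.4, 102 and 99.7 CPM in MCKO hearts, against 42.3, 45.0 and 43.7 CPM in controls. It was 2.37-fold higher, with a log2 fold change of 1.24 (SE 0.049, edgeR adjusted p = 7.28e-08). Dusp4, a nuclear phosphatase of ERK, JNK and p38, had 119, 126 and 125 CPM in MCKO hearts and 45.2, 48.1 and 42.2 CPM in controls. Of the 10 genes it had the largest fold change, 2.86-fold (log2 fold change 1.51, SE 0.058, edgeR adjusted p = 6.62e-08). For both phosphatases the lowest MCKO value lay far above the highest control value. Dusp6 lies on the plus strand of chromosome 10 at 99263231 to 99267489 and Dusp4 on the plus strand of chromosome 8 at 34807297 to 34819894.

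Etv4 and Etv5 belong to the PEA3 family of ETS factors and relay FGF signals to transcription. Etv5 had 117, 111 and 110.1 CPM in MCKO hearts, against 64.4, 62.1 and 68.3 CPM in controls (log2 fold change 0.86, SE 0.049, edgeR adjusted p = 8.21e-07). Etv4 had 26.3, 26.9 and 27.7 CPM in MCKO hearts, against 16.8, 15.8 and 15.05 CPM in controls (log2 fold change 0.83, SE 0.064, edgeR adjusted p = 5.75e-06). The factors rose by similar amounts, 1.81-fold for Etv5 and 1.77-fold for Etv4. Etv4 is annotated on chromosome 11, minus strand, from 101769742 to 101785371, and Etv5 on chromosome 16, minus strand, from 22381309 to 22439719. Etv1, the remaining PEA3 factor and named after its values were seen, was called higher by less (log2 fold change 0.29, SE 0.089, edgeR adjusted p = 0.0185). Its libraries overlapped, and the call was lost without MCKO replicate 1, control replicate 1 or control replicate 2 and with library totals (adjusted p = 0.0524 to 0.0863).

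**Figure D2:**
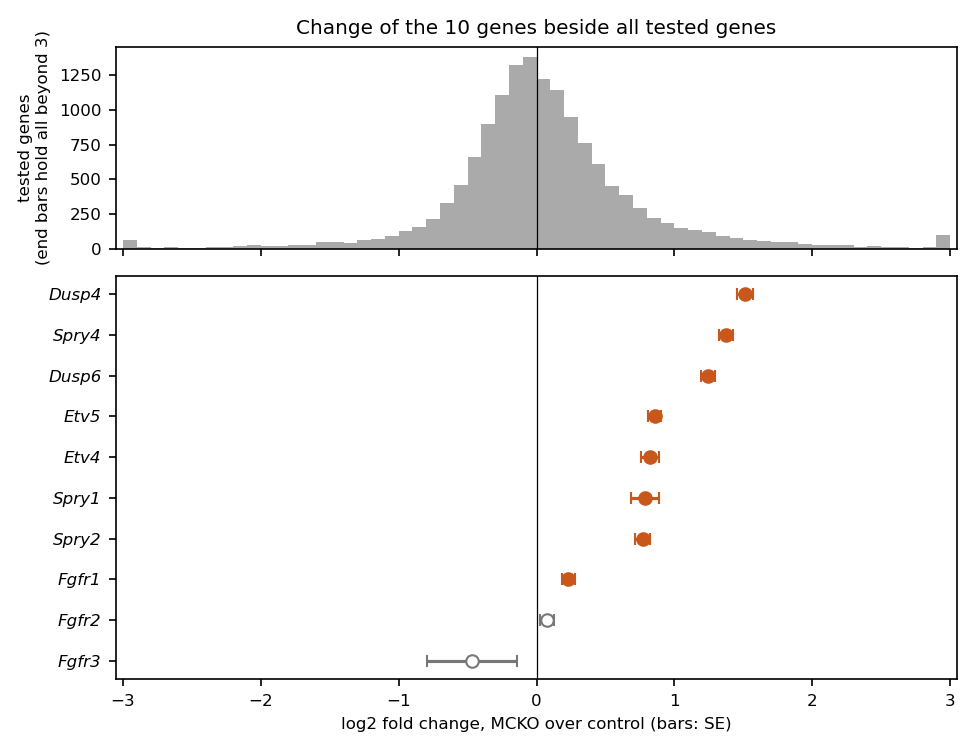
Log2 fold change, MCKO over control, of the 10 genes with its SE (lower panel; filled, adjusted p under 0.05; open, not called), below the distribution over all tested genes with a symbol (upper panel; the end bars hold all genes beyond the axis). Dusp4, Spry4 and Dusp6 lie above 1, Etv5, Etv4, Spry1 and Spry2 between 0.77 and 0.86, and the receptors nearest to or below 0.

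ETS factors bind sites built on the letters GGAA. The sequence before the transcription start is therefore shown for Dusp6, Spry1, Spry2 and Etv5, with starts from a RefSeq table (GRCm38.p6). The promoters of the other genes among the 7 are not analysed here. Each is printed 5′ to 3′ on the strand of the gene, as the bases before both the RefSeq and the GENCODE start, and capitals mark GGAA or its reverse complement TTCC, which cannot overlap each other.
Dusp6, chr10:99262981-99263230, plus strand: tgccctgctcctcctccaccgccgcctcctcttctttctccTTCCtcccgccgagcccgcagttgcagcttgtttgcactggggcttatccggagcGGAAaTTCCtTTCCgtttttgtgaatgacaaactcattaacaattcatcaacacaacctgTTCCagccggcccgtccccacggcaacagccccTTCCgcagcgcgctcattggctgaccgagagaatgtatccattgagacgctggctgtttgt
Spry1, chr3:37639697-37639946, plus strand: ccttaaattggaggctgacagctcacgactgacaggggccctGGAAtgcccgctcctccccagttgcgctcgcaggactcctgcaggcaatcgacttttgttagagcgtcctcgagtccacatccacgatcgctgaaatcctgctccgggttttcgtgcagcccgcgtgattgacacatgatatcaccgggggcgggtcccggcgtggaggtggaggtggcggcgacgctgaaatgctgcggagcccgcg
Spry2, chr14:105896820-105897069, minus strand: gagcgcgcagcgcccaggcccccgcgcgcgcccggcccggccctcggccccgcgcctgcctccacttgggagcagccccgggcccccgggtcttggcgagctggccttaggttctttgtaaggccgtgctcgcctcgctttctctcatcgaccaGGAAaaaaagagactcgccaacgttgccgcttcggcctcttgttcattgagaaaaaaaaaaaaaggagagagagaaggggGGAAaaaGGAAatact
Etv5, chr16:22439720-22439820, minus strand: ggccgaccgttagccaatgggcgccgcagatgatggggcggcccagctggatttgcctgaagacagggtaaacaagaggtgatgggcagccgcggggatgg
Over the 250 bases before the RefSeq start, the Dusp6 window held 6 matches to GGAA on either strand, Spry2 held 3 and Spry1 held 1. The share with at least 1 match among the 32851 such windows analysed was 93.4%, and 8.69% held 6 or more. The longer form CGGAA, nearer to the preferred ETS site, was found 3 times before Dusp6, with first bases at -155, -144 and -61 from the start, and not before Spry1, Spry2 or either Etv5 start. At least 1 match to CGGAA was in 25.2% of the windows analysed and 3 or more in 2.12%. The first Etv5 start had no GGAA match and the second had 4 over the 250 bases. A match is a run of letters and not a shown binding site, and sites elsewhere in these genes were not searched.

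The estimated log2 fold changes of the 7 feedback genes and ETS factors ran from 0.77 to 1.51. Ratios of counts within a library, which no scaling of libraries can alter, were compared for 8 pairs chosen after the values were seen. The log2 ratio of Spry4 to Spry2 was -0.28 ± 0.074 in MCKO and -0.88 ± 0.037 in controls (SD, n = 3 each), a difference of 0.60 (SE 0.048), and the ratio of Spry4 to Spry1 differed by 0.59 (SE 0.10). Dusp4 gained on Dusp6 by 0.27 (SE 0.049), and Dusp6 on Etv5 by 0.39 (SE 0.079). For these pairs and for Fgfr1 over Fgfr2 (0.16, SE 0.063) the groups did not overlap, and the exact 2-sided permutation p was 0.1, the smallest that 3 libraries against 3 allow, or 0.16 after Benjamini-Hochberg adjustment over the 8 pairs. The ratio of Etv5 to Etv4 overlapped, with a difference of 0.03 (SE 0.090, exact permutation p = 0.7). So did Spry2 to Spry1, at -0.02 (SE 0.091, exact permutation p = 0.8), and Dusp4 to Spry4, at 0.14 (SE 0.071, exact permutation p = 0.2).

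Set against each other per kilobase of merged exon length, Dusp4 had the highest level of the 10 genes in MCKO hearts, at 45.0 ± 1.5 CPM per kilobase, followed by Dusp6 (31.7 ± 1.1), Spry2 (29.5 ± 1.5) and Etv5 (27.5 ± 0.98). In controls Spry2 was highest at 18.0 ± 0.46 CPM per kilobase, followed by Dusp4 (16.5 ± 1.1), Etv5 (15.8 ± 0.77) and Dusp6 (13.95 ± 0.43; SD, n = 3 each). In MCKO the ranges over libraries overlapped between Dusp6 and Spry2 and between Spry2 and Etv5. In controls they overlapped between Spry2 and Dusp4 and between Dusp4 and Etv5. Within each library Dusp6 was above Spry2 in MCKO and Spry2 above Dusp4 in controls. Spry2 and Etv5 in MCKO, and Dusp4 and Etv5 in controls, changed order between libraries, so their places are not distinguished. Spry4 was above Fgfr1 and Etv4 in MCKO, at 10.7 ± 0.28 CPM per kilobase, and below both in controls, at 4.30 ± 0.071. With the length of the longest coding transcript instead, Fgfr1 was at 18.4 ± 0.33 CPM per kilobase in MCKO and 16.4 ± 0.76 in controls, above Spry4 and Etv4 in both groups. By this length Etv4 was also above Spry4 in MCKO, at 11.3 ± 0.29 against 10.7 ± 0.28 CPM per kilobase, with overlapping libraries. The lengths of the transcripts in use were not measured, so the order is approximate.

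FGF ligand transcripts moved in both directions. Of 22 FGF genes 13 were tested, with a median log2 fold change of -0.09. In MCKO 6 were called higher and 5 lower, where 29.3% and 29.1% of all tested genes were. Fgf10, a ligand of second heart field progenitors, had 18.7, 20.4 and 19.8 CPM in MCKO hearts, against 7.63, 6.60 and 6.68 CPM in controls (log2 fold change 1.55, SE 0.085, edgeR adjusted p = 5.66e-07). Fgf8, which is needed for outflow tract formation, had 3.97, 5.60 and 5.53 CPM in MCKO hearts and 1.96, 2.13 and 1.40 CPM in controls (log2 fold change 1.53, SE 0.20). Fgf9, which the endocardium sends to heart muscle, was also higher, by 0.49 (SE 0.14, edgeR adjusted p = 0.0136). Fgf23, known as a bone-derived phosphate hormone, was at 3.33 ± 0.37 CPM in MCKO and 0.70 ± 0.065 CPM in controls (SD, n = 3 each). For these 4 ligands every MCKO library lay above every control library, a separation that 28.3% of tested genes showed.

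The ligand genes called lower were at low levels, as were Fgf8, Fgf9 and Fgf23 among those called higher. Over the control group Fgf8, Fgf9 and Fgf23 had 139, 304 and 54 counts, against 391 for Fgf1, which was called lower. Fgf1 had 1.55, 1.40 and 1.26 CPM in MCKO hearts, against 4.89, 5.19 and 4.94 CPM in controls (log2 fold change -1.76, SE 0.14, edgeR adjusted p = 6.09e-06). Fgf5, Fgf7 and Fgf18 had 19, 16 and 16 counts over the MCKO group, against 92, 66 and 66 counts over the control group, with log2 fold changes of -2.30 (SE 0.29), -2.03 (SE 0.44) and -2.05 (SE 0.39). Fgf11, Fgf12 and Fgf13 belong to the intracellular FGF homologues, which are not secreted and are best known for binding sodium channels. Fgf11 had the largest change of any FGF gene here, at 35.4, 39.2 and 33.5 CPM in MCKO hearts against 3.37, 4.15 and 4.51 CPM in controls (log2 fold change 3.23, SE 0.11, edgeR adjusted p = 2.56e-08). Fgf13 was higher by 0.31 (SE 0.078) and Fgf12 lower, with a log2 fold change of -1.16 (SE 0.22). Summed over the 18 secreted FGF genes the level was 36.0 to 39.0 CPM in MCKO hearts and 22.4 to 24.1 CPM in controls. Within this sum Fgf10 alone was at 19.6 ± 0.89 CPM in MCKO and 6.97 ± 0.58 CPM in controls (SD, n = 3 each). Of the 9 secreted FGF genes tested, 4 were called higher and 4 lower, where 29.3% and 29.1% of all tested genes were.

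**Figure D3:**
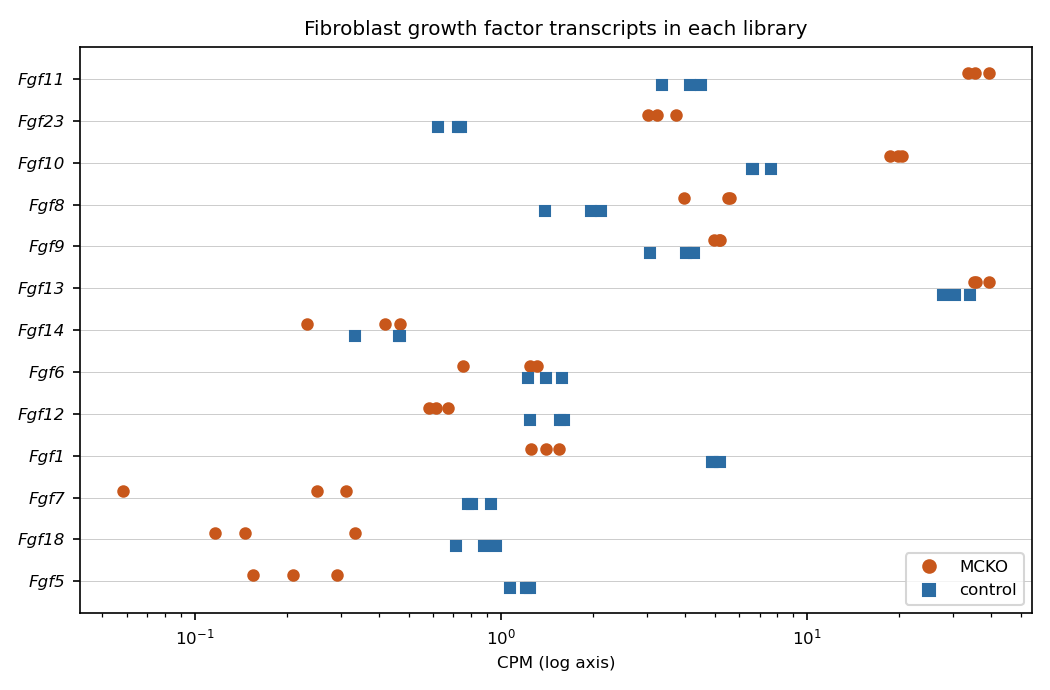
Level of the 13 tested FGF genes in each library (horizontal axis, CPM on a log scale), with MCKO libraries as orange circles and control libraries as blue squares, ordered by log2 fold change. Fgf11, Fgf23, Fgf10, Fgf8, Fgf9 and Fgf13 lie higher in MCKO, Fgf12, Fgf1, Fgf7, Fgf18 and Fgf5 lower, and Fgf14 and Fgf6 were not called.

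Coreceptors and receptor modulators were split, with 5 of 15 tested genes called higher and 5 lower and a median log2 fold change of 0.01. Among all tested genes 29.3% were called higher and 29.1% lower. Sdc4, a heparan sulphate carrier at focal adhesions that helps FGF bind its receptors, had 50.6 ± 2.7 CPM in MCKO and 17.7 ± 0.29 CPM in controls (SD, n = 3 each; log2 fold change 1.57, SE 0.060, edgeR adjusted p = 6.19e-08). Sdc1, another syndecan, had a log2 fold change of -0.66 (SE 0.059). The FGF receptor partners Flrt2 and Flrt3 were both lower, at 31.2 ± 2.5 and 29.0 ± 1.9 CPM in MCKO, against 76.2 ± 6.0 and 61.1 ± 3.2 CPM in controls (SD, n = 3 each). Il17rd, also called Sef, a membrane inhibitor of FGF signalling that belongs to the same set of induced genes as Sprouty and Dusp6, had 32.6, 31.1 and 31.5 CPM in MCKO hearts and 19.9, 15.5 and 16.5 CPM in controls (log2 fold change 0.93, SE 0.087, edgeR adjusted p = 1.84e-05).

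Changes in the route from receptor to ERK were mostly smaller than those of the feedback genes. Of 12 adaptor genes 6 were called higher and 3 lower, where 29.3% and 29.1% of all tested genes were. The median of the list was 0.13, and 1 was called lower without control replicate 1 and 5 with library totals. Shc1, which couples receptors to GRB2, had 165 ± 3.3 CPM in MCKO and 106 ± 2.9 CPM in controls (SD, n = 3 each; log2 fold change 0.69, SE 0.040). Frs3, a docking protein of FGF receptors, was higher by 1.06 (SE 0.13), and the RAS activator Sos2 by 0.40 (SE 0.051). Gab1, a docking protein for SHP2, was lower, with a log2 fold change of -0.34 (SE 0.059). Of 17 genes of the RAS, RAF, MEK and ERK core 9 were called higher and 2 lower, with a median of 0.16. These counts stand beside the same 29.3% and 29.1% of all tested genes. Map2k1, which encodes MEK1, had 233 ± 4.7 CPM in MCKO and 130.1 ± 3.0 CPM in controls (log2 fold change 0.90, SE 0.040, edgeR adjusted p = 1.66e-07). The ERK-activated kinase gene Rps6ka1 was higher by 0.89 (SE 0.053) and Mapk3, which encodes ERK1, by 0.46 (SE 0.047).

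Other feedback inhibitors were called higher more often than lower. Of 22 tested genes 15 rose and 4 fell, where 29.3% and 29.1% of all tested genes did. The median of this list was 0.36. Like the other lists, it was chosen with earlier results of these data known, so the count is a description and not a test. Spred3, of the Sprouty-related family that recruits neurofibromin to RAS, had 16.3, 16.8 and 14.9 CPM in MCKO hearts, against 6.08, 6.54 and 7.06 CPM in controls (log2 fold change 1.35, SE 0.091, edgeR adjusted p = 2.17e-06). Its relatives Spred1 and Spred2 rose less, by 0.38 (SE 0.073) and 0.45 (SE 0.048). Dusp10, which acts on JNK and p38, had 34.1 ± 1.0 CPM in MCKO and 13.2 ± 0.65 CPM in controls (log2 fold change 1.43, SE 0.064). Errfi1, an inhibitor of EGF receptor family kinases, rose by 1.08 (SE 0.056), and Dusp1, an immediate early phosphatase, by 0.76 (SE 0.060). Spry3 is not analysed here, and Cbl was listed at 0 counts in 4 of the 6 libraries.

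Of 16 other ETS genes 7 were called higher and 1 lower, where 29.3% and 29.1% of all tested genes were. The median of the list was 0.08, and 2 were called lower without control replicate 2 or with library totals. Ets1, an endothelial and mesenchymal factor, had 130.0 ± 2.9 CPM in MCKO and 77.1 ± 3.0 CPM in controls (SD, n = 3 each; log2 fold change 0.81, SE 0.044), and Ets2 rose by 0.72 (SE 0.045). The endothelial factor Erg rose by 0.57 (SE 0.087), and Elf4 had a log2 fold change of -0.47 (SE 0.050). Of 22 genes listed as targets of ERK 20 were called higher and 1 lower, with a median of 1.06. Among all tested genes the shares were 29.3% and 29.1%. This list too was chosen with earlier results of these data known, so the count is a description and not a test. Fos, an AP-1 subunit and immediate early gene, had 19.4 ± 0.96 CPM in MCKO and 5.08 ± 0.44 CPM in controls (log2 fold change 2.003, SE 0.091), and Fosl2 rose by 1.57 (SE 0.069). Ier3 and Bhlhe40, both known to respond also to stress or low oxygen, rose by 4.01 (SE 0.078) and 3.11 (SE 0.072). The exceptions, named after their values were seen, were Ccnd1, the cyclin of growth factor driven cell cycle entry, which fell with a log2 fold change of -0.77 (SE 0.045), and Fosl1, at 0.19 (SE 0.19, edgeR adjusted p = 0.416).

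**Figure D4:**
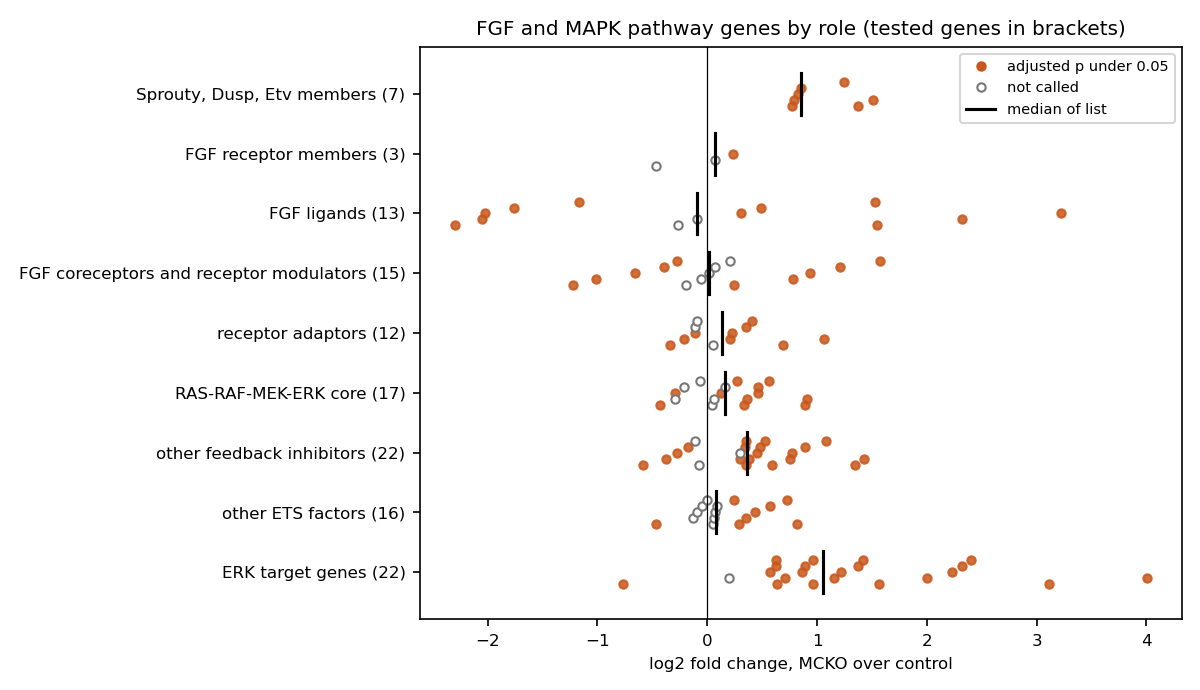
Log2 fold change, MCKO over control (horizontal axis), of every tested gene of each list, with the number of tested genes in brackets; filled points passed an adjusted p under 0.05, open points did not, and the black bar is the median of the list. The medians are 0.86 for the 7 Sprouty, Dusp and Etv genes, 1.06 for listed ERK targets and 0.36 for other feedback inhibitors, while those of ligands, receptors, coreceptors, adaptors, core kinases and other ETS genes lie between -0.09 and 0.16.

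Markers of several cell types differed between the same libraries, and their part in these results was not tested. Beside the calls below, 29.3% of all tested genes were called higher and 29.1% lower. Of the 6 heart muscle markers 3 were called higher, 0 lower and 3 not called. Those called were Tnnt2, Actc1 and Myl7, with log2 fold changes of 0.25 (SE 0.040), 0.23 (SE 0.044) and 0.55 (SE 0.062). The 5 primitive red cell markers, Hba-x, Hbb-y and Hbb-bh1 among them, summed to 5825 to 6178 CPM in MCKO hearts and 2871 to 3066 CPM in controls, and all 5 were called higher. Markers of endothelium and endocardium summed to 835 to 870 CPM in MCKO and 787 to 841 CPM in controls, with Pecam1 and Cdh5 among the 4 called higher and Tek among the 2 called lower. The 4 markers of second heart field and pharyngeal mesoderm, a list that holds Fgf8 and Fgf10 beside Isl1 and Tbx1, were all called higher. Isl1 rose by 0.32 (SE 0.069) and Tbx1, at 1.87 to 2.96 CPM in MCKO and 0.40 to 0.57 CPM in controls, by 2.28 (SE 0.26). Pharyngeal endoderm markers, Foxa2 and Epcam among them, summed to 10.6 to 11.2 CPM in MCKO and 1.45 to 2.001 CPM in controls, and all 4 tested were called higher. The 4 epicardial markers, Tbx18, Wt1 and Upk3b among them, were all called lower and summed to 60.4 to 61.3 CPM in MCKO and 141 to 148 CPM in controls. Mesenchymal markers, led by Postn and Col3a1, had 4 of 5 called lower, with sums of 109 to 116 CPM in MCKO and 354 to 366 CPM in controls. For the surface ectoderm markers the sum was 157 to 175 CPM in MCKO and 102 to 115 CPM in controls, nearly all of it Krt8. Krt8 was called higher, while Tfap2a overlapped between the groups and was not called (edgeR adjusted p = 0.113). Neural tube markers summed to 9.18 to 10.1 CPM in MCKO and 21.6 to 26.8 CPM in controls, with Sox2 and Pax6 called higher and Tubb3 lower. Apart from Nkx2-1 and Trp63, which were too low to be tested, each of these markers entered the test.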

How the data were processed

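An Aurum kit for RNA and a stranded TruSeq mRNA kit for the libraries were used, per the labels' protocols. The authors deposited estimated counts for each Ensembl gene ID, as whole numbers with no scaling for depth or length. The submitters' processing notes name kallisto and mm10, with no version or role; transcript set, gene summing and strand setting: not given in the sources used here. The knockout columns, headed CKO, were assigned to the MCKO titles through stage and number. Symbols came from GENCODE M21 (29857 of 30323 IDs).

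The 3 MCKO and 3 control libraries were fitted in edgeR 4.0.16 under R 4.3.3 (filterByExpr, TMM, robust quasi-likelihood fit, group as only term, 2-sided, Benjamini-Hochberg over 14697 genes). The fit was also run on simulated data in which few genes changed, which does not check it under changes as wide as those here. Totals of 19256840 to 34246477 put 3 counts, taken as a floor, at 0.0876 to 0.156 CPM. Intervals and floors cover counting error only. No library was a copy of another by a chi-square of counts. By minimap2 2.31 no member had a near-identical copy (95% identity over 80% of length). Gm16159, G630022F23Rik and Gm42922, which overlap exons of Fgfr1, Fgfr3 and Spry1 on the other strand, are not analysed here, so their reads could not be told apart if strand was ignored. Alternatives were RLE size factors, library totals, 2 other filters, DESeq2 1.42.0, the replicate number as block, each library left out, adjusted p under 0.01, and another gene length. Members and lists were chosen with earlier results of these data known. The text names Cdc42, all 10 members and their closest relatives, up to 4 called genes of each list by smallest p, every called FGF gene, and the first markers of each cell type; 1 gene that this rule names is not reported here.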

Additional observations from a re-analysis of the deposited data

How the results depend on the processing

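Across the 12 refits (RLE size factors, library totals, no filter, at least 50 counts in 3 libraries, DESeq2, replicate block and each library left out) and at an adjusted p under 0.01, 8 members were called higher and 0 lower, and the 7 Sprouty, Dusp and Etv genes were called higher. Their log2 fold changes ran from 0.71 (Spry1 and Spry2) to 1.56 (Dusp4), that of Fgfr1 from 0.17 to 0.27, and Fgfr2 and Fgfr3 were not called in any. Leaving out each library gave 7452 to 8695 called genes and 8 members called higher each time, with 0 lower. With calls limited to at least 2-fold changes, an alternative chosen after seeing the data, 1619 genes and 3 members (Dusp4, Spry4 and Dusp6) were called, by construction fewer. With the length of the longest coding transcript, Fgfr1 supplied 63.7% of the summed receptor level in MCKO and 59.7% in controls, against 66.6% and 62.2% with merged exon length. Scaling by library totals put the median log2 fold change of all genes at -0.06 and the share of calls that were higher at 42.6%, where TMM gave 50.2%. The replicate block gave 7765 calls, and of the named genes that were tested only Fgfrl1 lost its call. Deviations of libraries that share a number correlated at -0.0047, 0.0216 and -0.130, so the numbers were not taken as pairs. Over all named genes and cell type markers that were tested, these refits gave 1105 values. Of these, 1094 stayed on the same side of the threshold with no called direction turned, and 9 lost a call, 5 of Fgfrl1 and 4 of Etv1. The other 2 gained one: Myh6 without control replicate 3 (-0.12, adjusted p = 0.0189) and Nkx2-5 without control replicate 2 (0.73, adjusted p = 0.0410). Among the lists, FGF genes called lower numbered 1 with the stricter filter, which leaves out most of the scarce ones. Depth limits Fgf5, Fgf6, Fgf7, Fgf12, Fgf14, Fgf18, Fgf23 and Fgfr4, each with under 100 counts over at least 1 group. The same holds for the markers Tbx1, Foxa2, Epcam, Sox2 and Tfap2a, with 39, 25, 71, 10 and 56 counts over the control group.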

Other observations

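Of the FGF genes too scarce to be tested, Fgf15, Fgf3, Fgf4 and Fgf16 had more counts in each MCKO library than in any control library. Fgf15, the mouse counterpart of human FGF19, had 10, 18 and 4 counts in MCKO libraries, against 0, 1 and 1 in control libraries. Fgf3, a pharyngeal and second heart field ligand, had 12, 7 and 10 counts in MCKO libraries and 3, 2 and 3 in control libraries. Fgf4 had 4, 5 and 4 counts in MCKO libraries and 0 in each control library, where 0 allows up to 0.0933 to 0.156 CPM. Fgf16 had 5, 3 and 4 counts in MCKO libraries, against 2, 0 and 2 in control libraries. The others, Fgf2, Fgf17, Fgf20, Fgf21 and Fgf22, were at or below 4 counts in every library. Among tested genes 28.3% had every MCKO library above every control library. The share among genes too scarce to be tested was not measured, so the 4 separations are a description only. These genes were picked out after their values were seen and carry no test.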
